A study of Mus musculus with 23 samples.

Results

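Potassium channel genes were followed in the mouse hippocampus through every probe set, the group of short probes that measures 1 transcript on the array, whose gene symbol begins with Kcn. The rule found 51 probe sets for 42 genes among 8251 genes with a symbol of their own, and 0 probe sets shared a Kcn symbol with another gene. Each gene was represented by its probe set of highest mean signal, and 9 genes had more than 1. RNA came from whole hippocampi of 23 male C57BL/6JNIA mice, 14 aged 15 months and 9 aged 2 months, each hybridised to its own array. The labels name no mutation or drug, and mice of both ages had learned a Morris water maze task before the tissue was taken. Whole tissue holds all cell types, so fewer cells of a type and less RNA per cell cannot be told apart. Of the 42 genes, 20 were bright enough to be tested, which required a mean log2 signal above the 40th percentile of all probe sets, equal to a signal of 91.7. The other 22 were described from the same model run without this filter. Kcna2, Kcnd3 and Kcns1 lay just inside the filter, at signals (from the mean log2) of 97.0, 99.8 and 117.3, and Kcnc1, Kcna4 and Kcnn4 just outside it, at 88.7, 88.0 and 86.6.

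Potassium channels let potassium leave the cell along its gradient, which holds the resting potential of neurons, ends action potentials and sets how readily a neuron fires again. Voltage-gated families open on depolarisation, inward rectifiers carry current best near rest, tandem-pore channels give the leak current, and calcium-activated channels shape the afterhyperpolarisation that follows spikes. The hippocampus depends on each of these, and the slow afterhyperpolarisation of its pyramidal cells is a classic subject of ageing research. The label held for most members, since the symbols cover pore-forming subunits together with accessory subunits that form no pore, namely Kcnab, Kcne and Kcnmb genes.

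The arrays correlated at 0.943 to 0.983 in pairs. One stood apart at its dim end: 15-month replicate 13 had a 25th percentile of 53.4 and a median of 188, against 30.2 to 41.8 and 154 to 176 on the other arrays. It gave the highest signal of all mice for 6 members, the dim Kcna5, Kcna7, Kcnc1, Kcnj1 and Kcnj12 and the tested Kcns1, and their differences without it are given below. All 14 measured pan-neuronal markers were bright enough to be tested and none passed the test described below. Their summed signal was 60941 to 70510 at 15 months and 62013 to 71239 at 2 months. Markers of glia did differ between the ages: 5 of 10 tested microglia markers were higher at 15 months, with summed signals of 9425 to 11773 against 7203 to 9366. Of 9 astrocyte markers 1, S100b, was higher, with sums of 16425 to 28542 against 18105 to 21399. Of 10 interneuron markers 1 was higher, Npy, with a log2 difference of 0.34 (limma adjusted p = 0.0159). In the lists for oligodendrocytes, their progenitors, vessels, choroid plexus, neighbouring regions and hippocampal fields 0 markers passed. Choroid plexus markers varied between mice of both ages, and their summed signal ran from 959 to 14059 at 15 months and from 1079 to 13005 at 2 months. No marker was at 0 on any array. The part of these cell types in the values below was not tested, except where a model with the choroid plexus or pan-neuronal level is named.

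No potassium channel gene changed between 2 and 15 months by the limma test at a false discovery rate of 0.05, and most members lay slightly below their 2-month level. Of the 20 tested genes 0 passed, where 0.376% of all 7453 tested probe sets passed, and the lowest adjusted p was 0.285. Over all tested probe sets 0.335% were called higher and 0.0403% lower. The Mann-Whitney test also called none, with 3 of the 20 at an unadjusted p under 0.05, for which no share over all probe sets is given. At an unadjusted p under 0.05, 4 of the 20 were lower at 15 months, where 6.51% of all tested probe sets were, and none was higher, where 5.89% were. These 4 were Kcnj11, Kcnj9, Kcns2 and Kcnn1. Counted over all 24 tested Kcn probe sets, 4 were lower and 1 higher at that level, the latter being the dimmer probe set of Kcnab2. In 14 of the 20 genes the log2 difference, 15-month minus 2-month throughout, was below 0, against 55.0% of all tested probe sets, and the median was -0.10 against -0.02. In no member did the ages fail to overlap, and 0.0537% of all tested probe sets had ages that did not overlap. Among the 22 dim genes 15 lay below 0, against 55.4% of all dim probe sets, with 3 lower and 1 higher at an unadjusted p under 0.05, where 3.08% and 2.27% of dim probe sets were, and 5.13% and 4.46% of all probe sets without the filter. These shares describe the genes, and no test compared them with other genes.

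**Figure D1:**
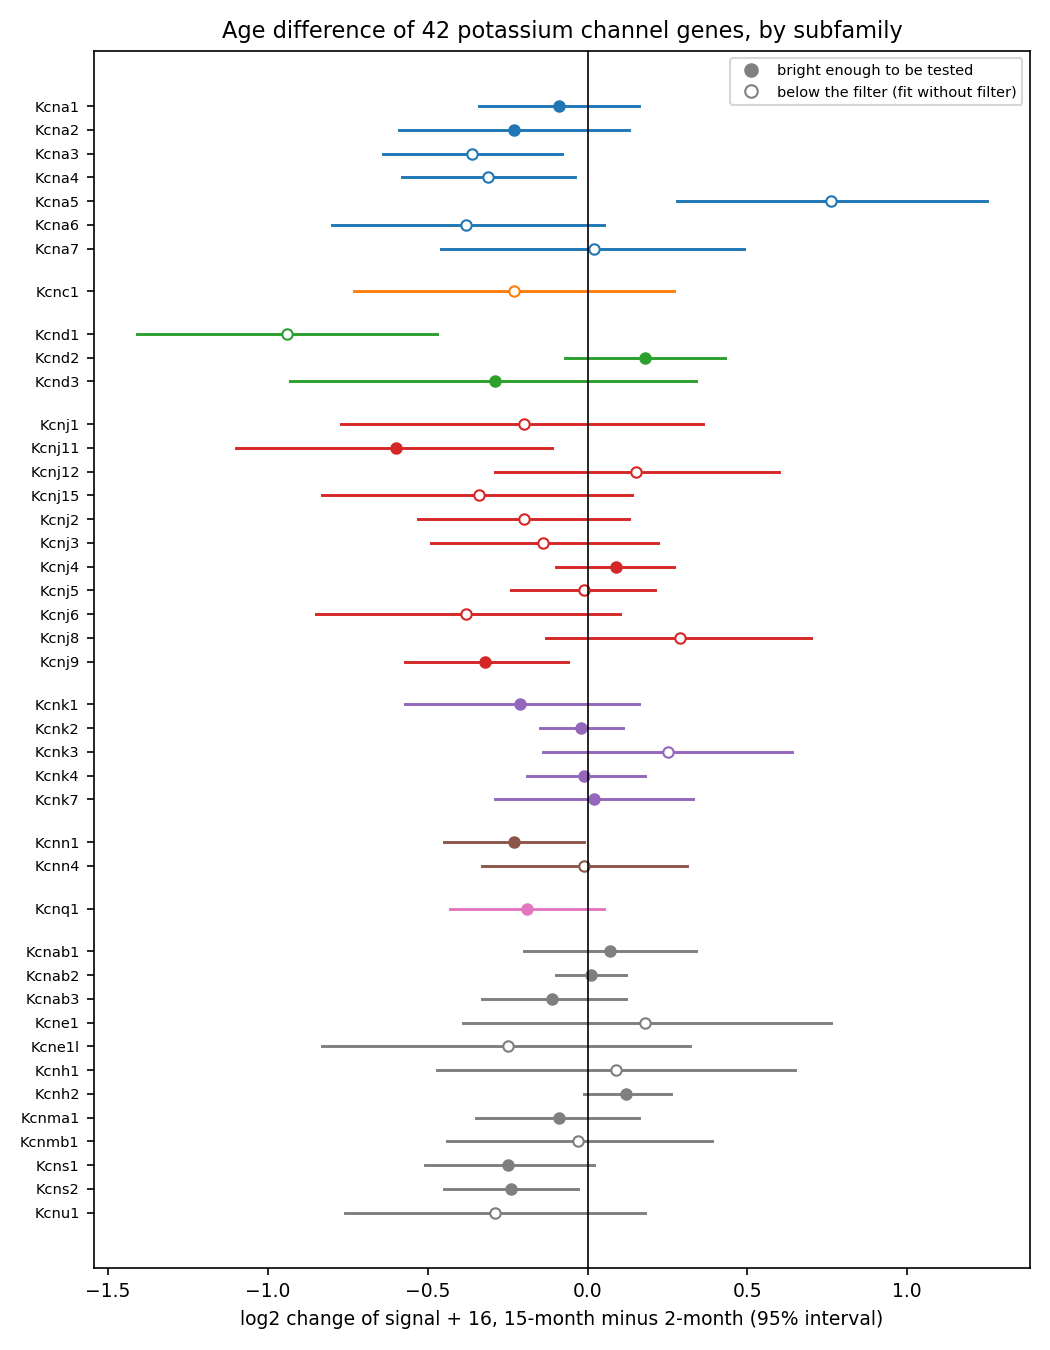
Log2 difference (signal + 16, 15-month minus 2-month, horizontal axis) of each of the 42 potassium channel genes with its 95% interval, coloured by subfamily; filled circles are the 20 tested genes and open circles the 22 below the filter. Kcnd1 lies farthest to the left at -0.94 and Kcna5 farthest to the right at 0.76, and most of the other intervals cross 0.

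Among the inward rectifiers, the 2 tested genes with low unadjusted p were Kcnj11 and Kcnj9. Kcnj11 encodes the pore of ATP-sensitive potassium channels, which open when the energy state of the cell falls. Its signal (probe set 98787_at) was 54.8 at the lowest, 187 at the median and 323 at the highest among the 14 mice of 15 months, and 170, 239 and 412 among the 9 of 2 months. Of the older mice 6 were below every young mouse, while 3 lay above the 2-month mean, so the groups overlapped widely. The means were 183 ± 87.9 (SD, n = 14) and 268 ± 82.5 (SD, n = 9), a log2 difference of -0.60 ± 0.24 (SE; limma adjusted p = 0.295), with a 15-month to 2-month ratio between 0.467 and 0.926 at 95%. Kcnj8, the pore of the vascular form of this channel, is dim and had means of 65.5 ± 24.6 and 52.8 ± 24.7, with the log2 difference at 0.29 ± 0.20. The sulfonylurea receptors that complete the channel had log2 differences of -0.05 ± 0.07 for Abcc8 and, below the filter, -0.19 ± 0.14 for Abcc9.

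Kcnj9 is a subunit of the G protein-gated channels (Kir3) through which GABA-B, adenosine and serotonin receptors quieten neurons. Its signal (probe set 98332_at) ran from 213 over a median of 334 to 489 at 15 months, and from 230 over 434 to 481 at 2 months. Of the 14 older mice 13 were below the 2-month mean, although a single older mouse was the highest of all 23. The log2 difference was -0.32 ± 0.12 (SE; adjusted p = 0.285), and it was -0.41 without 2-month replicate 3, whose signal of 230 was the lowest of its age. The other Kir3 subunits fell below the filter. Kcnj6 had means of 73.4 ± 26.7 at 15 months and 93.7 ± 21.8 at 2 months, and Kcnj3, with which the others often assemble, 71.1 ± 21.7 and 78.5 ± 20.6. Their log2 differences were -0.38 ± 0.23 and -0.14 ± 0.17. The value of Kcnj6 leaned on 15-month replicate 8, at 1.1 where the other older mice were at 60.8 to 119.5, and it was -0.20 without that mouse. Kcnj5, the atrial partner of Kcnj3, had a mean signal of 11.8 and a difference of -0.01 ± 0.11. None of the 4 Kir3 genes passed the test, and the dimmer tested probe set of Kcnj9, described below, had a difference of 0.08.

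The remaining inward rectifiers showed no common direction. Kcnj4, a classical strong rectifier of forebrain neurons, was measured at 473 ± 67.1 and 445 ± 72.6, a log2 difference of 0.09 ± 0.09 with a 95% interval from -0.10 to 0.27, and 0.03 without 2-month replicate 3. Kcnj2 and Kcnj12, strong rectifiers of the same branch, had mean signals of 10.6 and 19.6 and differences of -0.20 ± 0.16 and 0.15 ± 0.22, the latter 0.08 without 15-month replicate 13. Kcnj1, the potassium secretion channel of the kidney, and Kcnj15 had differences of -0.20 ± 0.27 and -0.34 ± 0.24 at mean signals of 46.2 and 23.8, and that of Kcnj1 was -0.35 without 15-month replicate 13.

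**Figure D2:**
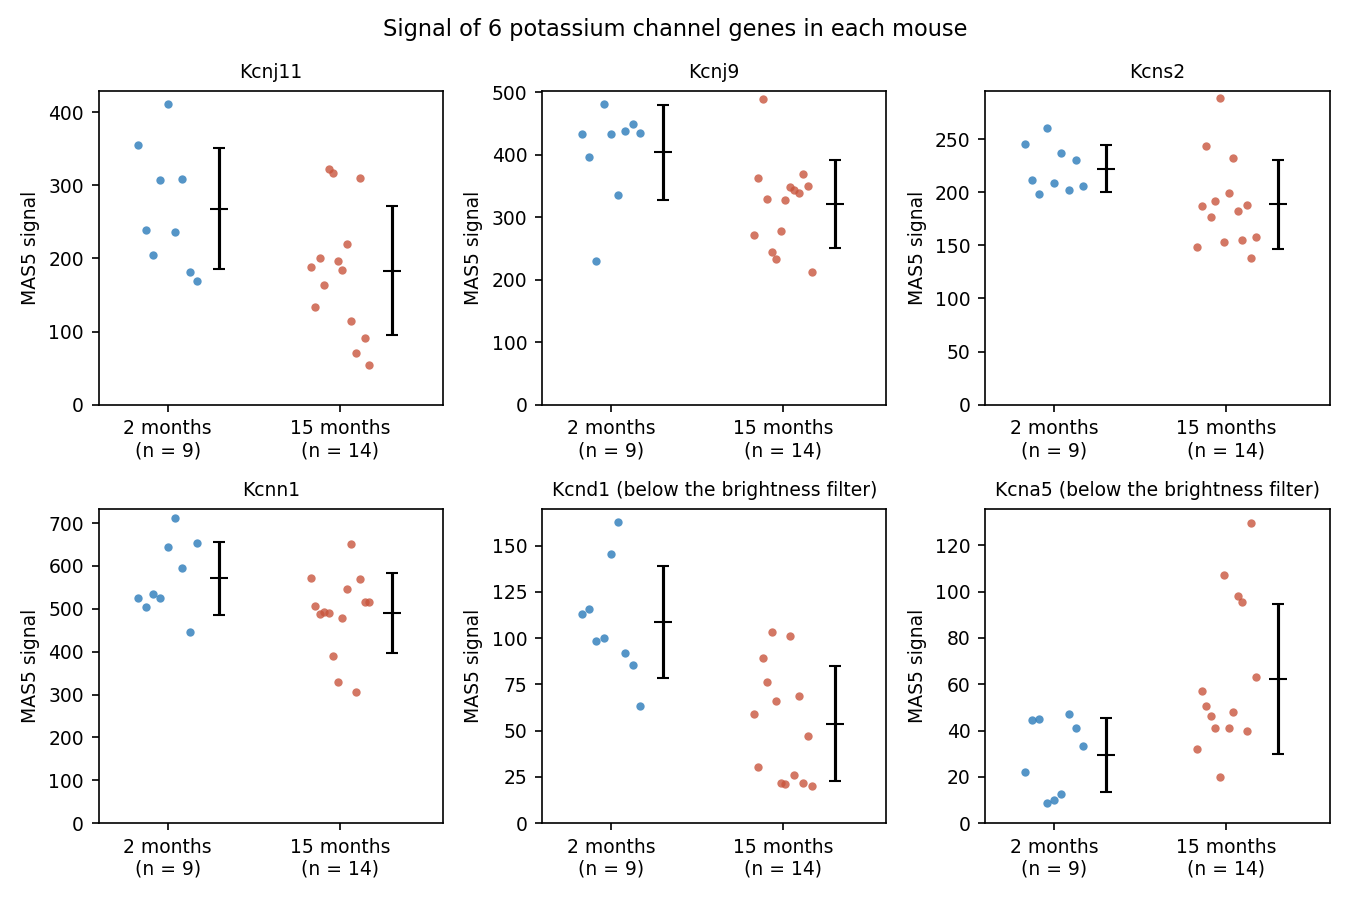
MAS5 signal (vertical axis, linear scale from 0) of 6 potassium channel genes in each of 9 mice of 2 months (blue) and 14 of 15 months (red), with the mean and SD as black bars. The ages overlap in every panel; Kcnj11 reaches down to 54.8 in the older mice, Kcnd1 to 20.1, and Kcna5 reaches up to 130 in the older mice against 47.0 in the young.

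The Kv1 genes (Kcna) form the low-threshold channels of axons that hold back repetitive firing. Kcna1, the brightest of them, had values of 412 to 864 around a median of 640 at 15 months and 550 to 882 around 627 at 2 months. Its log2 difference was -0.09 ± 0.12 (adjusted p = 0.806), and -0.04 without 2-month replicate 5. Kcna2, its usual axonal partner, was at 93.8 ± 27.3 and 114 ± 38.1, with a difference of -0.23 ± 0.18 (-0.15 without 2-month replicate 4). The ages overlapped for both genes, and the 95% intervals of their differences included 0.

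Below the filter, Kcna3, Kcna4 and Kcna5 stood out at unadjusted p under 0.05; these dim genes, and Kcnd1 below, were chosen after their values were seen. Kcna3, well known as the channel of T cells and microglia, was measured at 32.9 to 88.7 around a median of 69.2 at 15 months and at 66.7 to 108 around 86.5 at 2 months. All 14 older mice lay below the 2-month mean, and 6 lay below every young mouse. The log2 difference was -0.36 ± 0.14 (SE; adjusted p = 0.389 without the filter). The part of microglia, whose markers were higher at 15 months, was not tested. Kcna4, an inactivating A-type subunit, had means of 81.7 ± 21.6 and 104 ± 19.0, with a difference of -0.31 ± 0.13 (adjusted p = 0.456).

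Kcna5, a delayed rectifier best known from heart and vascular muscle, was the member with the highest log2 difference. Its signal (probe set 102295_at) was 20, 49.1 and 130 at the lowest, median and highest of the older mice and 8.5, 33.4 and 47.0 of the young. Of the 14 older mice 13 were above the 2-month mean and 8 above every young mouse, led by 15-month replicates 13, 7, 10 and 11 at 129.6, 107.1, 98.2 and 95.5. The log2 difference was 0.76 ± 0.23 (SE; adjusted p = 0.239), and it ranged from 0.66 to 0.84 when single mice were left out (0.69 without 15-month replicate 13). A second, still dimmer probe set of Kcna5 had means of 11.5 and 10.7, with a 95% interval of the log2 difference from -0.34 to 0.33. Kcna6 had a difference of -0.38 ± 0.21 and Kcna7, a muscle channel, of 0.02 ± 0.23 (-0.07 without 15-month replicate 13).

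The cytoplasmic beta subunits that bind Kv1 channels and speed their inactivation or aid their transport had, by their brightest probe sets, differences near 0; the other probe sets of Kcnab1 and Kcnab2 differed and are given with the pairs below. Kcnab2, the member with the brightest probe set, was at 3987 to 5210 around 4524 at 15 months and at 3941 to 5188 around 4557 at 2 months. Its log2 difference was 0.01 ± 0.05 with a 95% interval from -0.10 to 0.12, the narrowest interval of the 20 tested genes. Kcnab1 was at 522 ± 95.6 and 507 ± 152, a difference of 0.07 ± 0.13, and Kcnab3 at 192 ± 37.8 and 208 ± 37.6, a difference of -0.11 ± 0.11.

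The Kv4 genes (Kcnd) carry the A-type current that damps back-propagating spikes in pyramidal cell dendrites. Kcnd1, below the filter, had the lowest log2 difference of the 42 genes. Its signal (probe set 101302_at) ran from 20.1 over a median of 53.2 to 103 at 15 months and from 63.6 over 100.2 to 163 at 2 months. All 14 older mice were below the 2-month mean, 8 of them below every young mouse, and 4 young mice were above every older one. The means were 53.8 ± 31.0 (SD, n = 14) and 109 ± 30.3 (SD, n = 9), a log2 difference of -0.94 ± 0.23 (SE), or a 15-month to 2-month ratio of 0.522 (95% interval 0.377 to 0.723). With all 12422 non-control probe sets in the limma test this gave an adjusted p of 0.105, and the adjusted p ranged from 0.0517 to 0.221 when single mice were left out. In that test 0.217% of probe sets passed. The older mice themselves spread over 2 ranges, 6 at 20.1 to 30.5 and 8 at 47.2 to 103.2. Those 6 values lay near or below the 25th percentiles of their own arrays, which were 30.2 to 36.3. The ratio thus rests in part on very dim signals, and no detection calls were used.

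Kcnd2, the main Kv4 subunit of hippocampal pyramidal cells, was at 441 to 804 around 545 at 15 months and at 373 to 678 around 479 at 2 months. Its brightest probe set had a log2 difference of 0.18 ± 0.12 (adjusted p = 0.546). Kcnd3 varied from 31.1 to 254 at 15 months and from 44.1 to 234 at 2 months, so that its difference of -0.29 ± 0.31 carried the widest interval of the tested genes, from -0.93 to 0.34. It was -0.17 without 2-month replicate 7. When the 4 arrays with the dimmest 99th percentile were left out it was 0.09. Dpp6, an accessory protein of Kv4 channels, was at 1778 ± 301 and 1828 ± 303, a difference of -0.04 ± 0.10. Kcnc1, of the Kv3 channels that allow fast spiking in interneurons, lay just outside the filter at 93.6 ± 50.4 and 103 ± 28.4, with a difference of -0.23 ± 0.24 (-0.31 without 15-month replicate 13, its highest mouse). No member belonged to Kcnb.

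Kcns2 and Kcns1 encode silent subunits that pass no current alone and modify channels of the Kcnb group. Kcns2 was at 138 to 288 around a median of 185 in the older mice and at 198 to 261 around 211 in the young. Of the older mice 10 lay below every young mouse, while 3 lay above the 2-month mean and 1 of those above every young mouse. The means were 189 ± 41.7 and 222 ± 22.0, a log2 difference of -0.24 ± 0.10 (SE; adjusted p = 0.350). Kcns1 had a similar value, -0.25 ± 0.13 (adjusted p = 0.439), from 112 ± 31.2 and 134 ± 22.0, and was -0.30 without 15-month replicate 13.

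Kcnh2, a channel of the ERG type that also repolarises the heart, lay on the other side of 0. It had means of 554 ± 51.5 in the older mice and 508 ± 52.2 in the young, and its log2 difference was 0.12 ± 0.07 (adjusted p = 0.453), with 11 of 14 older mice above the 2-month mean. Kcnh1 was dim, with a difference of 0.09 ± 0.27. Kcnq1, the M-type relative best known from heart and inner ear and the only measured Kcnq gene, was at 241 to 486 around 325 at 15 months and 308 to 488 around 384 at 2 months, a difference of -0.19 ± 0.12 (adjusted p = 0.510). Its second probe set lay below the filter at a mean of 28.1, with a difference of -0.16 ± 0.22. The accessory subunit genes Kcne1 and Kcne1l were dim, with differences of 0.18 ± 0.28 and -0.25 ± 0.28.

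Of the calcium-activated channels, Kcnn1, a gene of the small-conductance type, had the fourth of the low unadjusted p values. Its signal was 306 to 650 around a median of 500 at 15 months and 447 to 712 around 534 at 2 months. Of the older mice 11 were below the 2-month mean of the log2 signal and 3 below every young mouse. The means were 490 ± 93.5 and 571 ± 85.2, a log2 difference of -0.23 ± 0.11 (SE; adjusted p = 0.382). With the choroid plexus level in the model the difference was -0.17, an adjustment that leans on the 6 mice of high choroid plexus level. Kcnn4, the intermediate-conductance channel of blood and immune cells, had means of 89.7 ± 26.6 and 88.8 ± 22.2.

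Kcnma1, the large-conductance channel that speeds spike repolarisation, had almost the same mean at both ages, 1182 ± 289 and 1228 ± 127. The spread was unlike, with 646 to 1574 at 15 months and 1035 to 1441 at 2 months, and 5 older mice below and 3 above every young mouse. The log2 difference was -0.09 ± 0.12 (adjusted p = 0.805), -0.03 without 15-month replicate 5 and -0.02 with the choroid plexus level in the model. Its accessory subunit Kcnmb1 and the sperm channel Kcnu1 were dim, with differences of -0.03 ± 0.20 and -0.29 ± 0.23.

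The tandem-pore leak channels (Kcnk) were the subfamily nearest to 0, with a median log2 difference of -0.01 over 4 tested genes. Kcnk2, a channel opened by stretch, lipids and volatile anaesthetics, was at 900 to 1331 around 1065 at 15 months and 999 to 1246 around 1085 at 2 months. Its difference was -0.02 ± 0.06 with a 95% interval from -0.15 to 0.11. Kcnk4, of the same branch, was at 423 ± 57.9 and 428 ± 83.5, a difference of -0.01 ± 0.09, and Kcnk7, for which a current of its own is hard to show, at 207 ± 53.0 and 203 ± 44.9, a difference of 0.02 ± 0.15. Kcnk1 was at 646 to 1834 around 1460 at 15 months and at 702 to 2560 around 1442 at 2 months, with a difference of -0.21 ± 0.18 (adjusted p = 0.672), which moved to -0.34 when 2-month replicate 3 was left out and to -0.11 when replicate 8 of that age was. Kcnk3, an acid-sensitive leak channel, was dim, at 20.7 ± 14.7 and 13 ± 3.89, with a difference of 0.25 ± 0.19.

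Side by side, the subfamilies ranged from a median log2 difference of -0.32 for the 3 tested Kcnj genes to -0.01 for the 4 Kcnk genes. Between them lay Kcnn (-0.23, 1 gene), Kcnq (-0.19, 1 gene), Kcna (-0.16, 2 genes) and Kcnd (-0.05, 2 genes), and the 7 other tested members had a median of -0.09. Over all measured genes without the filter, 8 of 11 Kcnj, 5 of 7 Kcna and 2 of 3 Kcnd genes lay below 0, where 55.2% of all probe sets did, with medians of -0.20, -0.23 and -0.29. For Kcnk 3 of 5 genes lay below 0. The order did not hold under other settings: the Kcnj median was -0.12 under a 60th-percentile filter, and again when probe sets of a gene were averaged, which puts it above Kcnn and Kcnq. The Kcnd median was 0.18 under that filter, 0.12 when the 4 dimmest arrays by 99th percentile were left out, and -0.16 with averaged probe sets. With 1 to 4 tested genes in each named subfamily, these medians are descriptions, and differences between subfamilies were not tested.

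Probe sets of the same gene did not always give the same picture, and 4 genes had a pair that was bright enough. For Kcnd2 the brightest probe set had a log2 difference of 0.18 and the other of -0.23 ± 0.14. The log2 ratio of the brightest to the other ran from 1.24 over 1.87 to 2.45 in the older mice and from 1.16 over 1.41 to 1.59 in the young, and 11 of 14 older mice exceeded every young mouse. The means were 1.81 ± 0.34 and 1.4 ± 0.16, a difference of 0.41 (exact permutation p = 0.00299 over 817190 regroupings of the mice). Adjusted over the 1076 such pairs of all genes the p was 0.189, and 0.186% of those pairs passed, with 9.94% at an unadjusted p under 0.05. The suffix of the brightest probe set marks relaxed rules for choosing its probes, as do those of the dimmer probe set of Kcnj9 and the brightest of Kcnq1. The dimmer probe sets of Kcnab1, Kcnab2 and Kcna5 carry a further suffix (f_at), and whether their probes match other genes was not examined.

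The other pairs differed less clearly. For Kcnj9 the dimmer probe set had a log2 difference of 0.08 ± 0.30, from signals between 40.6 and 493 in the young, against -0.32 for the brightest (exact permutation p = 0.248 for the ratio). With the mean of both in place of the brightest, the difference of Kcnj9 was -0.12. For Kcnab2 the dimmer probe set was at 2168 ± 275 and 1915 ± 282, a difference of 0.18 ± 0.08 (adjusted p = 0.350), against 0.01 for the brightest. The ratio differed by -0.17 (exact permutation p = 0.0503, or 0.497 adjusted over all pairs). For Kcnab1 the values were 0.07 and -0.19 ± 0.14 (exact permutation p = 0.104).

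**Figure D3:**
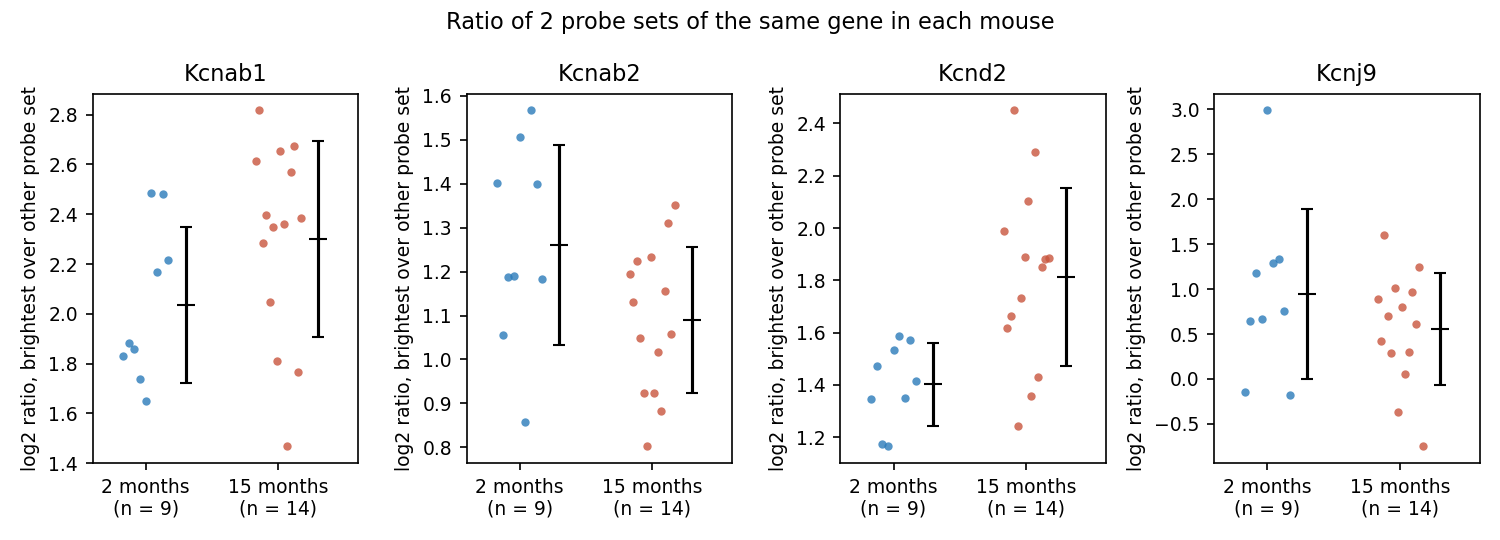
Log2 ratio of the brightest to the other probe set (vertical axis) of the 4 genes with a pair of tested probe sets, in each mouse of 2 months (blue, n = 9) and 15 months (red, n = 14), with the mean and SD in black. A shift between the ages means that the pair gave unlike age differences; it is clearest for Kcnd2, from 1.4 to 1.81 on average, and the axes do not start at 0.

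The spread between mice of the same age was wide in some potassium channel genes and narrow in others. The SD of the log2 signal within age, pooled over both ages, was above the median of all tested probe sets (0.23) in 15 of the 20 genes, with a median of 0.30. Dim probe sets varied more, with a median SD of 0.28 below the median level and 0.18 above it, and the 3 genes just inside the filter had SDs of 0.29 to 0.79. Against probe sets within 0.5 log2 units of their own level, 12 of the 20 genes lay above the middle. Kcnk1 was different in being bright. Its SD of 0.45 was greater than that of 99% of the 1057 tested probe sets near its own level, and its signal varied 2.84-fold among the older mice and 3.65-fold among the young. The lowest mice were 15-month replicate 9 at 646.4 and 2-month replicate 3 at 701.9, and the highest 2-month replicate 8 at 2560.0. Kcnj11 (0.61) and Kcnd3 (0.79) varied more still, and Kcnab2 (0.12), Kcnh2 (0.14) and Kcnk2 (0.14) least of the 20. Kcnma1 exceeded 93.5% of the 1198 probe sets near its level. It had an SD of 0.38 among the older mice and 0.15 among the young, and Kcns2 of 0.28 and 0.13, a contrast that was not tested.

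**Figure D4:**
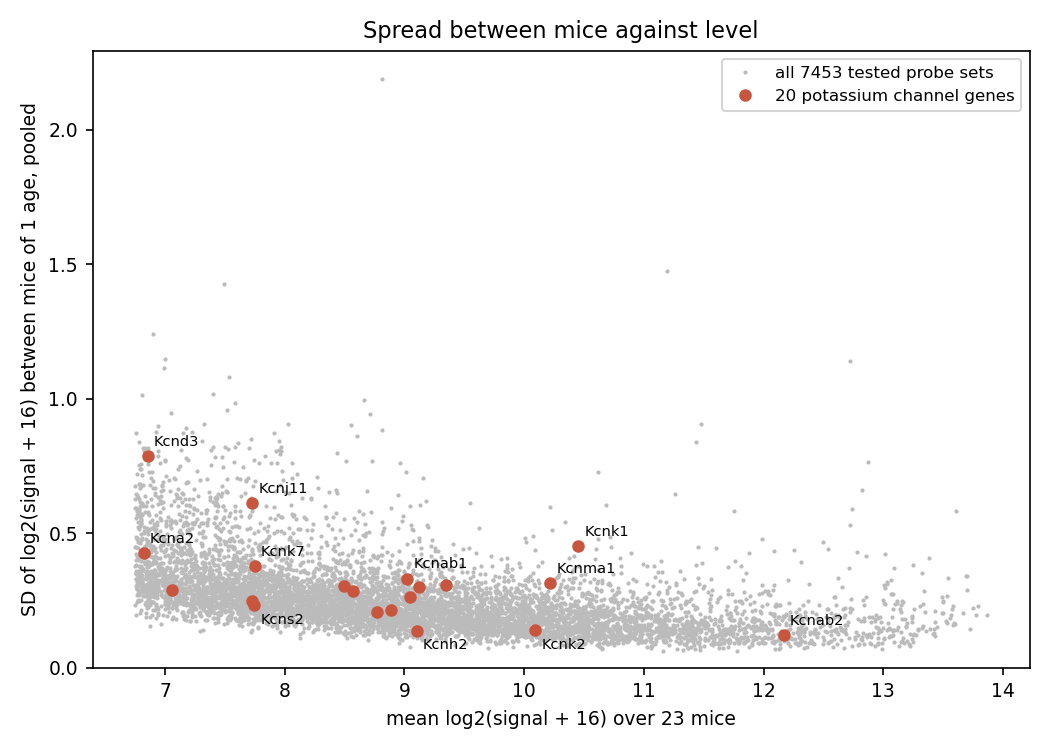
SD of log2(signal + 16) between mice of the same age (vertical axis) against the mean of log2(signal + 16) over 23 mice (horizontal axis) for the 20 tested potassium channel genes (red) and all 7453 tested probe sets (grey). Kcnk1 stands near the upper edge of the cloud at its level, with an SD of 0.45, and Kcnma1 in the upper part, with 0.31. Kcnk2 and Kcnab2 lie below the middle of the cloud, with 0.14 and 0.12.

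Genes that work with potassium channels gave no change that passed the test either. Of 8 tested accessory and anchoring genes, 1 was higher and 1 lower at an unadjusted p under 0.05, where 5.89% and 6.51% of all tested probe sets were, and the median log2 difference was -0.04. With lists of 4 to 17 tested genes, counts of 1 or 2 are read against these shares only as descriptions. Ank3, the ankyrin that anchors channels at the axon initial segment, was at 3745 ± 546 and 3116 ± 426, a difference of 0.26 ± 0.09 (adjusted p = 0.209). Of 17 tested genes in a list linked to Kir3 channels 0 were higher and 2 lower at that level, with a median of -0.09. The list holds receptors and G proteins, and also Rgs4, Rgs7 and Rgs8, which are neither. The lowest p was that of Htr1a, the inhibitory serotonin receptor of pyramidal cells, at 147 ± 33.7 and 180 ± 25, a difference of -0.28 ± 0.12 (adjusted p = 0.350), while Gabbr1, a subunit of the GABA-B receptor, had a log2 difference of 0.05 ± 0.06.

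Of 9 sodium pump and potassium cotransport genes 1 had an unadjusted p under 0.05, on the higher side. This was Slc12a2, a sodium, potassium and chloride cotransporter, with a difference of 0.31 ± 0.12 (adjusted p = 0.264). Of 4 sodium and HCN channel genes 1 had an unadjusted p under 0.05 on the higher side, where 5.89% of all tested probe sets did. This was the sodium channel gene Scn1a, at 1525 ± 200 and 1247 ± 191, with 0.29 ± 0.08 (adjusted p = 0.129). Of 12 kinase, phosphatase and calmodulin genes 2 reached that unadjusted level on the higher side. The lowest p was that of Csnk2a1, a casein kinase subunit that acts on calmodulin bound to Kcnn channels, with a difference of 0.40 ± 0.11 (adjusted p = 0.126).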

How the data were processed

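The values deposited by the authors are linear intensities (MAS5 signals, according to the submitters' processing notes), 1 for each probe set on each array. The version and settings used for MAS5 are not stated in those notes or the labels. The 12422 non-control probe sets were kept, and 66 controls and 0 unmapped columns left out. All 42 member symbols matched the RefSeq table (GRCm38.p6) by Entrez identifier. Signals were analysed as log2(signal + 16), which understates the difference of dim genes. Counts of mice above or below a 2-month mean use the mean on this log2 scale. Groups followed the age in the labels, and replicate numbers, in accession order, pair no mice. The series' design text calls the mice biological replicates. The numbers in the sample titles are lower for every 15-month mouse than for the 2-month mice, so whatever they order and age cannot be told apart.

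Probe sets above the 40th percentile of mean log2 signal, 7453, were tested with limma (version 3.58.1, run under R 4.3.3), using lmFit and eBayes, the latter with its trend and robust options. The test was two-sided, p-values were adjusted over all of these probe sets by Benjamini-Hochberg, and the threshold was a false discovery rate of 0.05. Members below the filter come from the same model without the filter. On simulated data with the 7453 probe sets, the test called 20.0% of log2 shifts of 0.25, the size of many members' differences. It called 76.0% of log2 shifts of 0.5, 94.0% of shifts of 1, and 4 of 7253 unshifted probe sets. Shifted probe sets were drawn at random from all tested ones, whose median SD was 0.23 against 0.30 for the tested members. The 38 calls at a shift of 0.5 alone exceeded the 28 in the real data, which makes the adjustment more lenient. These rates may therefore overstate those for the member genes. Ratios of probe sets were compared with exact permutation tests over all regroupings (numpy 2.4.6, scipy 1.17.1, pandas 2.3.3, Python 3.11.15), adjusted over 1076 pairs, and figures drawn with matplotlib 3.10.9. The choroid plexus level is the mean log2 signal of its tested markers.

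Named with values by mouse were members with an unadjusted p under 0.05 and the brightest tested gene of each subfamily; others by level, and of each list of partner genes the one of lowest p if under 0.05. Members, lists and rules were chosen with earlier results of these data known. The number of arrays limits the precision.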

Additional observations from a re-analysis of the deposited data

Results flagged for a closer look

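In 6 of the 42 genes a single mouse of the 2-month group stood far from the other 8: its gap to the nearest of them exceeded Dixon's 95% limit for 9 samples, on the log2 scale. Chance gives such a gap in about 1 in 20 groups. The limit was applied to the 42 groups of 9 young mice only, so single older mice that stood apart were not looked for here. Kcnj9 was at 230 in 2-month replicate 3, against 336 to 481 in the others. Kcnk4 was at 641 in 2-month replicate 6, against 357 to 431. The remaining 4 genes are below the filter: Kcne1 at 154 in 2-month replicate 3 (others 18.4 to 60.9), Kcnmb1 at 57.7 in 2-month replicate 4 (others 5.6 to 17.7), Kcnj12 at 40.9 in 2-month replicate 8 (others 8.8 to 20.6) and Kcnu1 at 17.2 in 2-month replicate 1 (others 43.8 to 87.2). Without 2-month replicate 6 the log2 difference of Kcnk4 was 0.07, against -0.01 with it.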

How the results depend on the processing

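None of the 20 potassium channel genes passed with limma or Mann-Whitney in any of the 34 settings that could give it a value, and the lowest adjusted p was 0.161, for Kcnj9 without 2-month replicate 3. In 13 of the 20 genes the log2 difference kept its sign in all of them. Signs that turned in single settings were those of Kcnab1 (0.07 to -0.06) and Kcnd2 (0.18 to -0.02) with the mean of probe sets, Kcnab2 (0.01 to -0.01) and Kcnk4 (-0.01 to 0.01) with quantile normalization, Kcnk7 (0.02 to -0.01) with the choroid plexus covariate and Kcnd3 (-0.29 to 0.09) without the 4 arrays of lowest 99th percentile. Leaving out single mice gave ranges of -0.004 to 0.16 for Kcnab1, -0.02 to 0.03 for Kcnab2, -0.05 to 0.002 for Kcnk2, -0.04 to 0.07 for Kcnk4 and -0.08 to 0.08 for Kcnk7. In 12 of the 20 tested and 15 of the 22 dim genes some single mouse moved the difference by over 1.5 times or across 0. Among the dim genes the sign turned with quantile normalization for Kcnj5 (0.02), Kcnmb1 (0.01) and Kcnn4 (0.02), and with a pseudocount of 64 for Kcnn4 (0.0005). Without single mice it ran from -0.07 to 0.11 for Kcna7, -0.06 to 0.06 for Kcnn4, -0.05 to 0.03 for Kcnj5, -0.12 to 0.13 for Kcnmb1 and -0.02 to 0.24 for Kcnh1. Kcne1 (0.10 to 0.39), Kcne1l (-0.39 to -0.10), Kcnj8 (0.13 to 0.39), Kcnj3 (-0.20 to -0.05), Kcnj2 (-0.26 to -0.09), Kcnu1 (-0.44 to -0.20) and, among the tested, Kcnab3 (-0.15 to -0.06) kept their sign.

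The count of members at an unadjusted p under 0.05 was 2 with the 60th-percentile filter and 3 to 6 of 20 without single mice. With no filter it was 8 of 42, where 9.59% of all probe sets were. Members below 0 numbered 8 with the 60th-percentile filter and 13 to 16 of 20 without single mice. With no filter they were 29 of 42, against 55.2% of all probe sets. Shares over all probe sets are not given for the 60th-percentile filter or the fits without single mice. These filters change how many genes are counted. The median of the other Kcn genes was 0.04 with the 60th-percentile filter and -0.12 to -0.03 without single mice, while the Kcnd median ran from -0.12 to 0.02 and the Kcnk median from -0.06 to 0.01. Over all probe sets, 6 were lower with the 60th-percentile filter, 8 with the Mann-Whitney test and 2 to 7 without single mice (7 without 15-month replicate 3), against 3. The count in both directions ran from 20 to 39 and the higher count from 18 to 32 without single mice. For the dim genes, settings added after the data were seen gave log2 differences of -1.19 for Kcnd1 and 1.12 for Kcna5 with a pseudocount of 1, and -0.58 and 0.41 with 64. No paired analysis was possible because the labels pair no mice across the ages.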

Other observations

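The choroid plexus level fell into 2 sets, 17 mice at 6.93 to 7.90 and 6 mice at 8.45 to 10.34 on the log2 scale. A correlation of the potassium channel genes with it over all 23 mice is therefore not given. Both ages had mice in the higher set. The differences quoted with this level in the model depend on the same split of the mice.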
